A study of Homo sapiens with 4 samples.

Results

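The genes described here are 35 genes of glycolysis and of the response to low oxygen, read in BT-474 breast cancer cells with and without a neuropilin-1 (NRP-1) plasmid. They were chosen by name, as the rows of the deposited tables whose NCBI Gene ID belongs to one of the 35 symbols, and all 35 are among the 18882 gene IDs of the files. They comprise 15 glycolytic enzymes, 2 regulators of glycolytic flux (PFKFB3 and PFKFB4), 7 genes of glucose and lactate transport and of the fate of pyruvate, 9 targets of hypoxia-inducible factors outside glycolysis (called HIF-only targets below) and the HIF alpha subunits HIF1A and EPAS1. BT-474 is an established human cell line from a luminal B-like breast cancer that carries many copies of ERBB2. Control cells were labelled wild-type and were sequenced in 2 libraries. BT-474 NRP-1 cells, stably transfected with the NRP-1 cDNA in the plasmid pPTuner IRES2, isolated as colonies and selected with Geneticin, were sequenced in 2 further libraries, numbered 2 and 3 in the labels. Both groups were grown in RPMI-1640 with FBS, and no treatment or low-oxygen culture is named for either. The labels do not say how many colonies the NRP-1 libraries stand for or whether libraries of a group came from separate cultures, so p-values measure the spread between these libraries, which may be technical. Cells with an empty plasmid were not analysed here, so effects of the NRP-1 cDNA, of transfection and of selection cannot be told apart.

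Glycolysis turns glucose into pyruvate in the cytosol, in a preparatory phase that spends ATP and a payoff phase that returns it, and tumor cells often run it at a high rate and send pyruvate to lactate even with oxygen present. Hypoxia-inducible factors are transcription factors made of an alpha subunit and ARNT. With oxygen, the prolyl hydroxylases of the EGLN family mark the alpha subunit for degradation, and without it the factor binds short DNA elements with the core ACGTG or GCGTG and raises genes of glycolysis together with genes that have no part in it. The HIF-only targets here include a carbonic anhydrase, mitophagy receptors, a vasodilator peptide and the EGLN enzymes themselves.

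The libraries were of nearly equal depth, with 8243595 and 8308030 reads in the controls and 8395510 and 8448926 in NRP-1 replicates 2 and 3, summed over genes from the expected counts of the files. NRP1 had 7 and 8 reads in the controls against 103 and 62 reads in NRP-1 replicates 2 and 3 (log2 fold change 3.38, SE 0.42, adjusted p = 0.044 in edgeR's quasi-likelihood test, where SE is the standard error). The 9 markers of luminal breast epithelium that were looked at were all read, with ERBB2 between 1196 and 1509 FPKM. Their summed level was 4483 and 4484 FPKM in the controls and 5542 and 4811 FPKM in NRP-1 replicates 2 and 3. Unlike the sum, EPCAM and CDH1 were lower in both NRP-1 libraries. Among 11 markers of leukocytes, endothelium, fibroblasts and basal cells, CD3E, CD14, PDGFRB and KRT14 had no reads. Their sum was 36.7 to 37.3 FPKM in the controls and 29.4 to 32.2 FPKM in the NRP-1 libraries, nearly all of it COL1A1, with 26.8 to 35.2 FPKM. In bulk RNA, fewer cells of a type and less RNA per cell cannot be told apart.

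The promoters of some members carry the core of the HIF element close to the start of transcription. Those of LDHA, PGK1, CA9, BNIP3, ANKRD37, EGLN3 and ADM are shown. They were picked by name, and windows of other members are not shown. Each run is the 250 bases before the start in the RefSeq annotation of GRCh38.p14, 5′ to 3′ on the strand of the gene. Capitals mark ACGTG or GCGTG on either strand, where CACGT and CACGC are the reverse of these letters and CACGTG holds ACGTG on both strands. LDHA has a further window with GCGTG alone, and PGK1 a further ACGTG in the 50 bases after its start.
LDHA, chr11:18394313-18394562, plus strand: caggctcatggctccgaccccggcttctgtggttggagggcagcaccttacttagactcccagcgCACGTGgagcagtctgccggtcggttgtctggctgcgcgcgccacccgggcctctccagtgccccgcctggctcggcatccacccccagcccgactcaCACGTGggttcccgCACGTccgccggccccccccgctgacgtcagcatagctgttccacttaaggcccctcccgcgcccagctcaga
PGK1, chrX:78103998-78104247, plus strand: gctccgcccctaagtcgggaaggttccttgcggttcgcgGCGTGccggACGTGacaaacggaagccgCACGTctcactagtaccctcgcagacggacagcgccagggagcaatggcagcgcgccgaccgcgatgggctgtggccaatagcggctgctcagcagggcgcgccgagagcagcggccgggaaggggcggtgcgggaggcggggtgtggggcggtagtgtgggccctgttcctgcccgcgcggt
CA9, chr9:35673678-35673927, plus strand: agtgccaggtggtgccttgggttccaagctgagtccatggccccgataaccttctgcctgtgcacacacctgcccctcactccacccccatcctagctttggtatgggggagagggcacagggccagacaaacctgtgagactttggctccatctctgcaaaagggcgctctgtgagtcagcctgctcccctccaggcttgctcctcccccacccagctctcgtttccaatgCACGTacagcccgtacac
BNIP3, chr10:131981924-131982173, minus strand: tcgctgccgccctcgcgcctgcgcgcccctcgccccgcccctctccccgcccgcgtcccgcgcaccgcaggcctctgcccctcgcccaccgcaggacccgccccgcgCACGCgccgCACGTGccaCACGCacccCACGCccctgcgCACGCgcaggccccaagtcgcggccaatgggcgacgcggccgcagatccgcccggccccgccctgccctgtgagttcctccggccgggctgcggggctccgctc
ANKRD37, chr4:185396591-185396840, plus strand: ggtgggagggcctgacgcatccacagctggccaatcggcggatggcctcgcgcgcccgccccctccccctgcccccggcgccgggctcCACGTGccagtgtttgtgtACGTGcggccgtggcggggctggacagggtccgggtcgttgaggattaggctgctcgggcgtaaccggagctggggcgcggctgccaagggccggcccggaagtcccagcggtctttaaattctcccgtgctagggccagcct
EGLN3, chr14:33951075-33951324, minus strand: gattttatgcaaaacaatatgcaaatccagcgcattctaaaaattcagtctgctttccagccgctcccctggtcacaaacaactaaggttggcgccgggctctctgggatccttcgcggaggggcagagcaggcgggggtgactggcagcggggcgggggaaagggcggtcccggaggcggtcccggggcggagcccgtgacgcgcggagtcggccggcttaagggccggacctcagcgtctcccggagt
ADM, chr11:10304823-10305072, plus strand: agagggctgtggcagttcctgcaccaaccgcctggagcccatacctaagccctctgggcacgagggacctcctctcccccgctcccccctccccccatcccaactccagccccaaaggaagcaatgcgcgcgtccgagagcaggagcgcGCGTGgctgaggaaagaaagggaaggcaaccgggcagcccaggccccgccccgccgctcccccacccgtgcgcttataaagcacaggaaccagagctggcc
LDHA and PGK1 belong to the glucose side of the set and CA9, BNIP3, ANKRD37, EGLN3 and ADM to the HIF-only targets. Windows were counted over 300 bases, 250 before and 50 after the start. Not every gene had a window in this count, and the HIF-only targets NDRG1 and BNIP3L had none. ACGTG was present in 41.2% of 34 windows of the 15 enzymes and in 4 of 8 windows of 7 HIF-only targets. Among the 35116 windows used, from 27305 genes, the share was 21.4%. GCGTG was present in 32.4% of the enzyme windows, in 4 of the 8 and in 36.5% of the 35116. Windows of a gene can overlap, base composition was not matched, and a match is a description of the letters and not a bound site. EGLN3 had neither core in its window, and ADM had GCGTG but not ACGTG.

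The 35 genes covered a wide range of levels. GAPDH, the highest, had 1383 and 1336 FPKM in the control libraries, and ALDOA, PKM and ENO1 had between 343 and 761 FPKM there. At the low end SLC16A1, the lactate transporter MCT1, had 0.18 FPKM in each control and 0.33 and 0.24 FPKM in NRP-1 replicates 2 and 3. It had 6, 6, 11 and 8 reads, too few to be tested, and 34 members were.

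**Figure D1:**
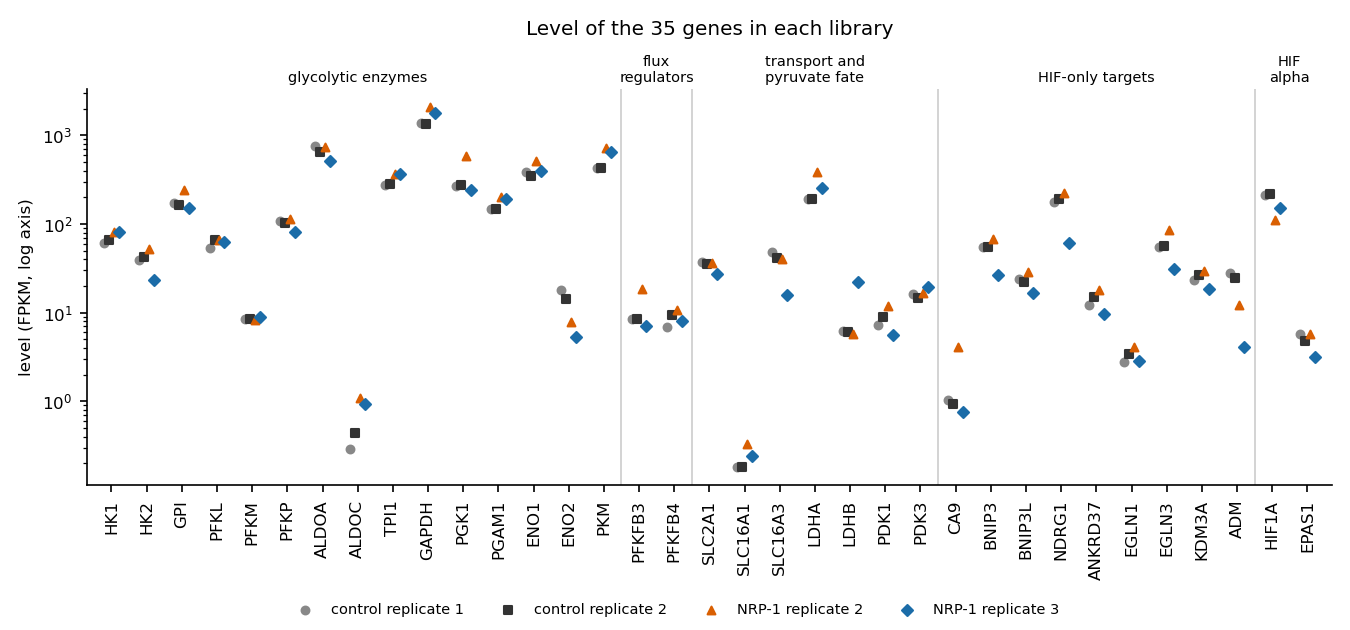
Level of each of the 35 genes in each of the 4 libraries, in FPKM on a log axis, with genes grouped by role and 1 point per library. Control points lie close together for most genes, while the NRP-1 points of many HIF-only targets, such as NDRG1 and EGLN3, lie on either side of them.

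Some glycolytic enzymes, PKM and GAPDH among them, lay above the controls in both NRP-1 libraries, while 2 of the 15 enzymes lay below the control mean in replicate 2 and 6 in replicate 3. For most HIF-only targets the NRP-1 libraries lay on opposite sides of the controls. The median fitted log2 fold change was 0.30 over the 15 enzymes, -0.06 over the 9 HIF-only targets and 0.02 over all 14298 tested genes. These medians depended on the NRP-1 libraries, and were 0.07 for the enzymes and -0.54 for the HIF-only targets without replicate 2, and 0.39 and 0.28 without replicate 3. PKM, LDHA and GAPDH lay 1.57-fold, 1.63-fold and 1.39-fold higher, and ENO2, ADM and HIF1A had 0.394, 0.305 and 0.589 times the control level. At an adjusted p of 0.05, edgeR's quasi-likelihood test called 0 of the 34 tested members, against 1.09% of all tested genes. At an unadjusted p of 0.05 it gave 10 members, 7 higher and 3 lower, against 22.9% of all tested genes (10.8% higher and 12.1% lower). DESeq2 called 5 members against 6.67% of all tested genes, PKM and LDHA higher (2.78% of all) and ENO2, ADM and HIF1A lower (3.89% of all). limma on log2(FPKM + 1) called 0 against 0.0480% of all tested genes, with 10 at an unadjusted p of 0.05, against 21.1%. With 2 libraries against 2, an exact permutation test cannot give a p below 0.33, so the p-values come from models across all genes.

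In the preparatory phase, HK1 (Gene ID 3098), the hexokinase found in most tissues, had 1828 and 2004 reads in the controls against 2504 and 2462 reads in NRP-1 replicates 2 and 3. HK2 (Gene ID 3099), the inducible hexokinase of many tumors and a HIF target, had 2326 and 2547 reads against 3106 and 1410. Both NRP-1 libraries thus lay above the controls for HK1, whereas for HK2 replicate 2 lay above them and replicate 3 below. HK1 had a log2 fold change of 0.32 (95% interval 0.03 to 0.60, adjusted p = 0.189, edgeR) and HK2 of -0.17 (95% interval -1.02 to 0.68). GPI, which turns glucose 6-phosphate into fructose 6-phosphate, had 5958 and 5786 reads in the controls and 8698 and 5413 reads in NRP-1 replicates 2 and 3, again on either side of the controls.

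For phosphofructokinase, the committed step, the fitted differences between the groups were small in each isoenzyme. PFKL, the liver type, had 1315 and 1600 reads against 1651 and 1551. PFKM, the muscle type, had 234 and 223 reads against 226 and 251. PFKP, the platelet type, had 2400 and 2262 reads against 2526 and 1824, with replicate 3 below both controls at 0.75 times their mean. Their log2 fold changes lay between -0.16 and 0.08, and the widest of their 95% intervals, that of PFKP, ran from -0.60 to 0.28.

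Aldolase splits the sugar bisphosphate. ALDOA, the main aldolase of these cells, had 10051 and 8581 reads in the controls and 10023 and 7020 reads in NRP-1 replicates 2 and 3, so the groups overlapped. ALDOC, the brain-type aldolase, had 4 and 6 reads against 15 and 13, above the controls in both NRP-1 libraries but at a level of at most 1.08 FPKM (log2 fold change 1.40, SE 0.51, adjusted p = 0.178, edgeR). TPI1, triose phosphate isomerase, had 3033 and 3151 reads against 4206 and 4230, or 379 ± 6.90 against 496 ± 1.51 CPM (SD, n = 2), where CPM are reads brought to a common library size. The NRP-1 libraries agreed to within the width of the control pair, and edgeR put the log2 fold change at 0.39 (SE 0.12, adjusted p = 0.128).

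The payoff phase begins with GAPDH (Gene ID 2597), glyceraldehyde phosphate dehydrogenase, often taken as a reference gene. It had 15831 and 15398 reads in the controls against 24445 and 20808 in NRP-1 replicates 2 and 3, or 1912 ± 54.2 against 2659 ± 304.8 CPM (SD, n = 2). Both NRP-1 libraries lay above both controls, with log2 ratios to their mean of 0.59 and 0.35 (log2 fold change 0.48, SE 0.14, adjusted p = 0.134, edgeR).

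PGK1 (Gene ID 5230), phosphoglycerate kinase, which makes ATP in the next step, had 5456 and 5549 reads in the controls, 11935 in NRP-1 replicate 2 and 5028 in replicate 3. Only replicate 2 was high, at 2.08 times the control mean, and replicate 3 lay just below the controls at 0.876 times. The fitted log2 fold change of 0.57 (SE 0.38, edgeR, adjusted p = 0.422) was 1.06 without replicate 3 and -0.20 without replicate 2.

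PGAM1, phosphoglycerate mutase, had 2128 and 2176 reads against 2967 and 2800 (log2 fold change 0.36, SE 0.12, adjusted p = 0.146, edgeR). ENO1, the widely expressed enolase, had 6976 and 6315 reads against 9591 and 7409. The NRP-1 libraries lay above the controls for both genes, for ENO1 by a small margin in replicate 3.

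ENO2 (Gene ID 2026), the neuron-type enolase, went the other way, with 363 and 288 reads in the controls and 159 and 108 in NRP-1 replicates 2 and 3. This was 39.9 ± 6.84 against 15.7 ± 4.25 CPM (SD, n = 2), with both NRP-1 libraries below both controls. edgeR put the log2 fold change at -1.34 (SE 0.25, 95% interval -1.95 to -0.74, adjusted p = 0.064). DESeq2 gave an adjusted p of 0.000694, the lowest over the alternatives that kept all libraries, which reached 0.134.

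PKM (Gene ID 5315), pyruvate kinase, the last enzyme of the pathway, had 8831 and 8960 reads in the controls and 15054 and 13981 in NRP-1 replicates 2 and 3. Expressed as CPM this was 1089 ± 1.64 against 1706 ± 90.8 (SD, n = 2). Both NRP-1 libraries lay well above both controls, at 1.63 and 1.51 times their mean. On the log2 scale the difference was 0.65 (SE 0.13, 95% interval 0.34 to 0.96, adjusted p = 0.0694, edgeR), and the adjusted p ranged from 0.00261 in DESeq2 to 0.128 over the alternatives with all libraries. The splice forms of PKM share a gene row and were not separated.

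In all, 7 of the 15 enzymes had both NRP-1 libraries above both controls (HK1, ALDOC, TPI1, GAPDH, PGAM1, ENO1 and PKM), which is 46.7% against 27.9% of all tested genes. With LDHA these made 8 of the 34 tested members (23.5%), a share near that of all genes. Among the 15 enzymes ENO2 alone had both below. With SLC16A3, ADM and HIF1A it made 4 of the 34 tested members (11.8%), against 28.3% of all tested genes. When the pathway is divided at GAPDH, a division made after the values were seen, the median log2 fold change was 0.42 over the 6 payoff genes and 0.08 over the 9 preparatory genes. The summed level of the 15 enzymes was 4100 and 3914 FPKM in the controls and 5802 and 4559 FPKM in NRP-1 replicates 2 and 3. This was 0.875%, 0.857%, 1.37% and 1.04% of all FPKM, whose total was lower in the NRP-1 libraries. As a share of all expected counts, the enzymes made up 0.81%, 0.781%, 1.16% and 0.879%. The summed luminal markers were likewise higher in the NRP-1 libraries and highest in replicate 2, at 4483 and 4484 FPKM against 5542 and 4811 FPKM. Single markers did not all follow the sum. KRT8, KRT18, KRT19, GATA3 and FOXA1 were higher in both NRP-1 libraries. EPCAM was lower in both, with 161.2 and 169.0 FPKM against 139.1 and 134.2, and so was CDH1, with 138.6 and 135.4 against 133.5 and 120.1. ESR1 lay on either side of the controls, and ERBB2 was higher in replicate 2 only. The part of these markers in the result was not tested.

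**Figure D2:**
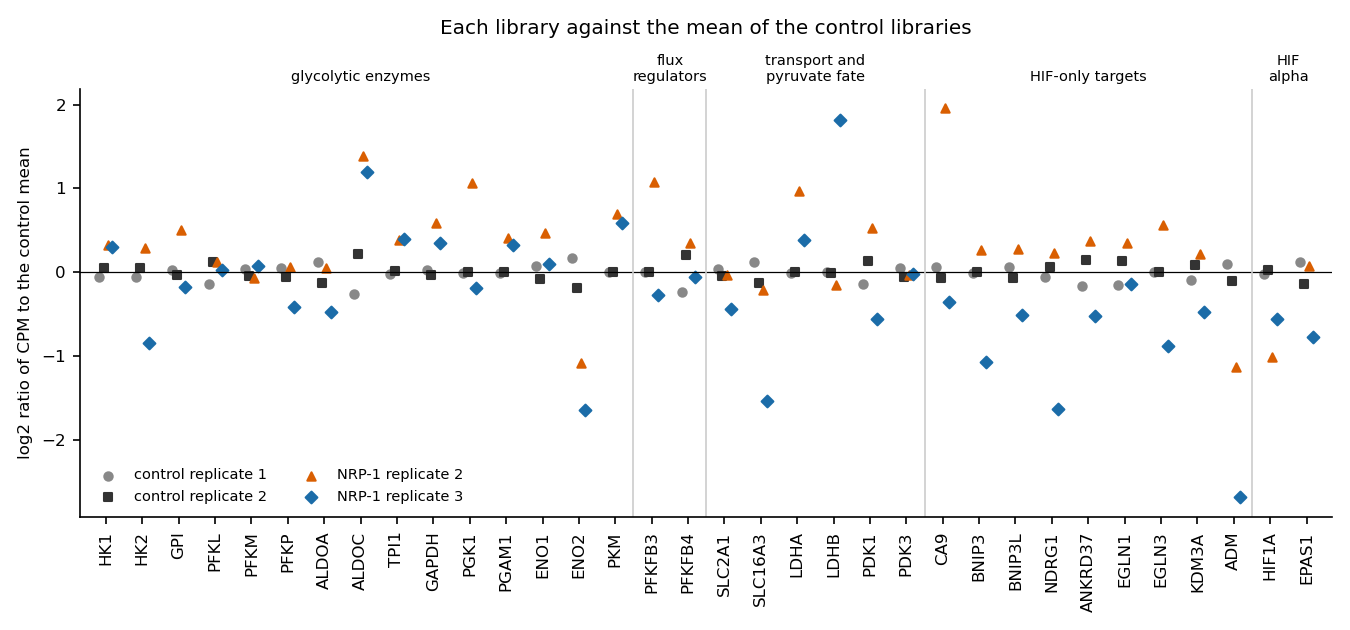
The log2 ratio of each library to the mean of the control libraries (CPM, with 0.1 added), for the 34 tested genes, grouped by role. For PKM, TPI1 and GAPDH both NRP-1 points lie above 0, for ENO2, ADM and HIF1A both lie below, and for most HIF-only targets the NRP-1 points lie on opposite sides.

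PFKFB3 and PFKFB4 make and break down fructose 2,6-bisphosphate, a potent activator of phosphofructokinase, and both are known HIF targets. PFKFB3 (Gene ID 5209) had 311 and 316 reads in the controls, 690 in NRP-1 replicate 2 and 270 in replicate 3. Replicate 2 stood at 2.11 times the control mean and replicate 3 below it at 0.826 times, so the log2 fold change of 0.56 had a 95% interval from -0.45 to 1.56. PFKFB4 had 200 and 275 reads against 314 and 238, with replicate 3 between the controls.

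Neither tested transporter passed the test. SLC2A1, the glucose transporter GLUT1, had 1139 and 1088 reads in the controls and 1135 and 856 in NRP-1 replicates 2 and 3 (log2 fold change -0.22, 95% interval -0.63 to 0.18). SLC16A3 (Gene ID 9123), the lactate exporter MCT4, had 826 and 706 reads against 687 and 274. Replicate 2 fell just under the lower control and replicate 3 far under it, at 0.343 times the control mean (log2 fold change -0.73, SE 0.40, adjusted p = 0.332, edgeR).

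LDHA (Gene ID 3939), the lactate dehydrogenase subunit that favors lactate, had 3490 and 3565 reads in the controls and 7185 and 4821 in NRP-1 replicates 2 and 3. Expressed as CPM this was 432 ± 2.72 against 705 ± 197 (SD, n = 2). Both NRP-1 libraries were above both controls, replicate 2 at 1.96 times and replicate 3 at 1.31 times their mean. The fitted difference was 0.71 on the log2 scale (SE 0.20, adjusted p = 0.121, edgeR), and the adjusted p ranged from 0.0314 in DESeq2 to 0.206 over the alternatives with all libraries.

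LDHB (Gene ID 3945), the subunit that favors pyruvate, showed the opposite split, with 66 and 66 reads in the controls, 62 in NRP-1 replicate 2 and 245 in replicate 3. Replicate 3 alone was high, at 3.56 times the control mean (log2 fold change 1.16, SE 0.60, adjusted p = 0.313, edgeR). LDHB was the member with the largest ratio in favor of replicate 3.

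The pyruvate dehydrogenase kinases hold pyruvate back from the mitochondrion. PDK1, a HIF target, had 278 and 340 reads in the controls, 465 in NRP-1 replicate 2 and 218 in replicate 3, on either side of the controls. PDK3 had 1683 and 1585 reads against 1670 and 1679, and was level on reads (log2 fold change -0.02, 95% interval -0.31 to 0.26). In FPKM it had 16.1 and 14.7 against 16.7 and 19.6, because the mean transcript length behind the value was 12495 and 12795 bases in the controls and 11796 and 9998 bases in NRP-1 replicates 2 and 3, and its sign turned with the unit (0.22 in limma on log2(FPKM + 1)).

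**Figure D3:**
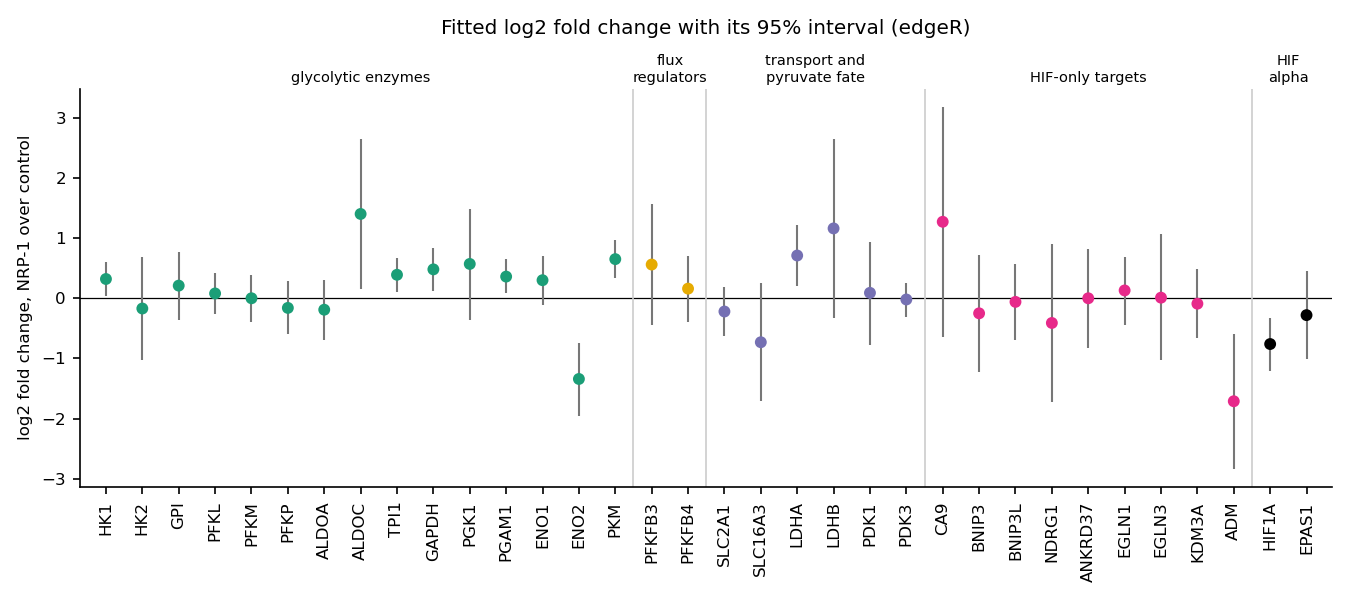
Fitted log2 fold change of NRP-1 over control for the 34 tested genes with its 95% interval (edgeR's quasi-likelihood test, 2 libraries per group), colored by role. Intervals of PKM, TPI1, GAPDH and LDHA lie above 0 and those of ENO2, ADM and HIF1A below it, whereas CA9, NDRG1 and LDHB have wide intervals that include 0.

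For most HIF-only targets the NRP-1 libraries differed from each other more than the group means did. CA9 (Gene ID 768), carbonic anhydrase IX, a surface enzyme widely used to mark hypoxic tumor cells, had 13 and 12 reads in the controls, 53 in NRP-1 replicate 2 and 10 in replicate 3. Replicate 2 was 4.07 times the control mean and replicate 3 was within a few reads of it. The log2 fold change of 1.27 had a 95% interval from -0.64 to 3.18 and rests on replicate 2, since it was -0.39 without that library.

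NDRG1 (Gene ID 10397), a stress-response gene induced by hypoxia and differentiation, was the highest of these targets, with 4548 and 4999 reads in the controls, 5849 in NRP-1 replicate 2 and 1613 in replicate 3. Here replicate 3 stood out, at 0.324 times the control mean, while replicate 2 was 1.18 times it. The group means, 584 ± 33.9 and 439 ± 352 CPM (SD, n = 2), hide this, and the log2 fold change was -0.41 (95% interval -1.72 to 0.90).

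EGLN3 (Gene ID 112399), a HIF prolyl hydroxylase that HIF itself induces, had 1253 and 1265 reads in the controls, 1938 in NRP-1 replicate 2 and 712 in replicate 3. Its controls were almost equal and its NRP-1 libraries lay 2.73-fold apart, so that the log2 fold change was 0.01 (95% interval -1.03 to 1.06). BNIP3 (Gene ID 664), a mitophagy receptor, had 686 and 699 reads against 867 and 343, and its relative BNIP3L had 705 and 650 against 856 and 496. The order was the same in both, with replicate 2 above and replicate 3 below the controls.

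ANKRD37, an ankyrin-repeat gene induced by HIF, had 91 and 114 reads in the controls and 139 and 74 in NRP-1 replicates 2 and 3. KDM3A, a histone demethylase, had 910 and 1037 reads against 1178 and 731. Both genes showed the same order again. EGLN1, the main oxygen-sensing hydroxylase, had 165 and 203 reads against 244 and 174, with replicate 3 between the controls.

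ADM (Gene ID 133), the vasodilator peptide adrenomedullin, was the exception, with 331 and 293 reads in the controls against 148 and 50 in NRP-1 replicates 2 and 3. This was 38.2 ± 3.62 against 11.6 ± 8.15 CPM (SD, n = 2), and both NRP-1 libraries lay far below both controls although they differed 2.96-fold from each other. For ADM the log2 fold change was -1.71 (SE 0.46, 95% interval -2.83 to -0.60, adjusted p = 0.107, edgeR). DESeq2 gave an adjusted p of 0.00289, and the others that kept all libraries reached 0.199.

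HIF1A (Gene ID 3091), the widely expressed alpha subunit, had 7142 and 7497 reads in the controls and 3789 and 5193 in NRP-1 replicates 2 and 3. Both NRP-1 libraries lay below both controls, at 0.497 and 0.681 times their mean, with replicate 2 the lower. The log2 fold change of HIF1A was -0.76 (SE 0.18, 95% interval -1.20 to -0.33, adjusted p = 0.0831, edgeR). Its adjusted p ranged from 0.00567 in DESeq2 to 0.155 over the alternatives with all libraries. All 9 HIF-only targets were higher in replicate 2 than in replicate 3, against 51.0% of all tested genes. A link between these levels and HIF1A RNA was not tested. EPAS1, which encodes HIF-2 alpha, had 248 and 209 reads against 252 and 140. HIF alpha subunits are controlled largely through protein stability, which RNA libraries do not measure.

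NRP-1 replicate 2 lay above both controls and replicate 3 below both in 13 of the 34 tested members (38.2%), against 8.85% of all tested genes. These were 7 of 9 HIF-only targets (CA9, BNIP3, BNIP3L, NDRG1, ANKRD37, EGLN3 and KDM3A), 4 of 15 enzymes (HK2, GPI, PFKP and PGK1), PFKFB3 and PDK1. The opposite order was seen in PFKM and LDHB, against 9.58% of all tested genes. NRP-1 replicate 2 was at least 2-fold above replicate 3 in 10 members and in 5 of the 9 HIF-only targets (55.6%), against 4.09% of all tested genes. LDHB alone was at least 2-fold higher in replicate 3, against 4.48%. The log2 ratio of replicate 2 to replicate 3 ran from 0.49 to 2.31 over the HIF-only targets, while the control libraries differed by at most 0.30 for any of them. The enzymes spanned -0.15 to 1.25, with 13 of 15 higher in replicate 2, against 51.0% of all tested genes. Against the control mean, the median log2 ratio of the HIF-only targets was 0.28 in replicate 2 and -0.52 in replicate 3, and that of the enzymes was 0.39 and 0.07.

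**Figure D4:**
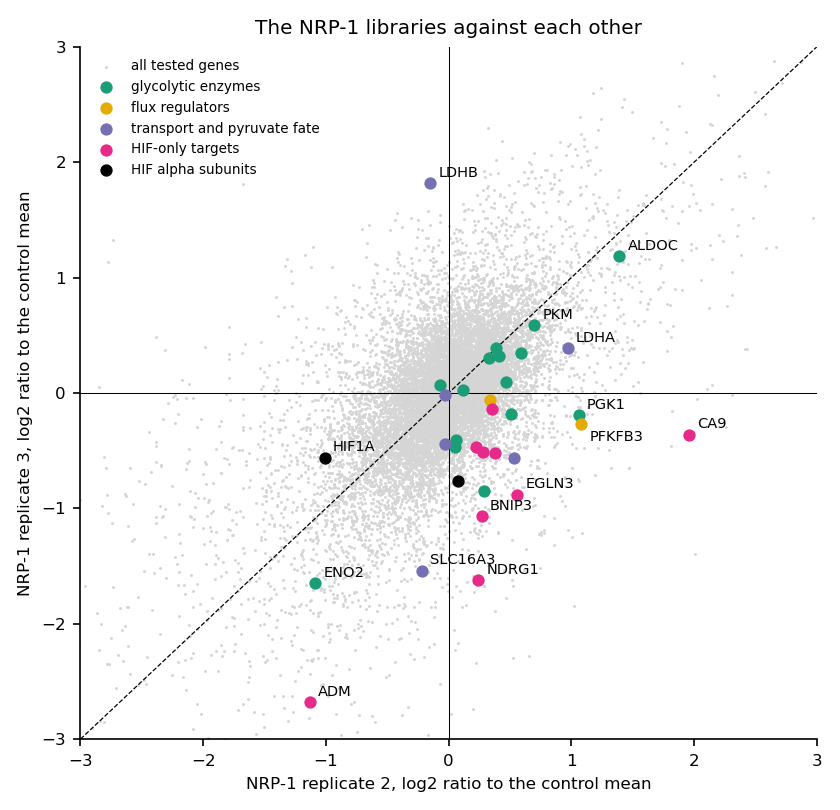
The log2 ratio to the control mean in NRP-1 replicate 3 (vertical) against NRP-1 replicate 2 (horizontal), with the members colored by role over all 14298 tested genes in grey, 149 of which lie beyond the axes. HIF-only targets other than ADM lie below the dashed line of equality to the right of 0 and below it, PKM lies near the line, and LDHB lies far above it.

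The NRP-1 libraries also differed in NRP1 itself, with 103 reads in replicate 2 and 62 in replicate 3, and in the luminal transcription factors GATA3, with 688 and 289 reads against 184 and 186 in the controls, and ESR1, with 273 and 735 reads against 395 and 437. Their part in the split was not tested. With NRP-1 replicate 3 left out, edgeR called 20 members against 28.2% of all tested genes, 17 of them higher (13.5% of all) and 3 lower (14.7% of all). With replicate 2 left out it called 22 against 36.8%, with 7 higher (18.5% of all) and 15 lower (18.3% of all). In these fits the spread comes from the control pair and the lone NRP-1 library is assumed to vary like it, so they compare a library with the controls. The next members were picked because both fits called them, and their ranges depend on that choice. HK1, TPI1, GAPDH, PGAM1, PKM and LDHA had log2 fold changes from 0.29 to 0.97. Those of ENO2, ADM and HIF1A ran from -2.71 to -0.56. HK2, PDK1, BNIP3, BNIP3L, NDRG1 and EGLN3 lay at -1.63 to -0.52 without replicate 2 and at 0.24 to 0.57 without replicate 3. Other members also kept or turned sign. Without replicate 2 and without replicate 3, ENO1 had 0.09 and 0.47, and SLC16A3 had -1.55 and -0.21. PGK1 had -0.20 and 1.06, and CA9 had -0.39 and 2.02. How many of all genes kept or turned sign between these fits was not counted. With either control library left out, edgeR called 0 members and 0 of all genes. In each of these fits 2 members had an unadjusted p under 0.05, against 5.34% of all tested genes without control replicate 1 and 8.03% without control replicate 2.

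Levels of isoenzymes can be compared with each other in FPKM, which is per length. The families hold members only, so isoenzymes such as PDK2, PDK4 and PFKFB2 are left out of the sums. HK2 made up 39.2% and 39.2% of hexokinase FPKM in the controls and 38.6% and 22.5% in NRP-1 replicates 2 and 3, so only replicate 3 moved away. ENO2 made up 4.53% and 4.0% of enolase against 1.49% and 1.31%, lower in both NRP-1 libraries. LDHB made up 3.13% and 3.07% of lactate dehydrogenase in the controls, 1.45% in replicate 2 and 7.99% in replicate 3, which thus lay on either side. PDK1 made up 31.2% and 37.6% of the summed PDK1 and PDK3, with 41.9% in replicate 2 and 22.2% in replicate 3. The shorter PDK3 length in replicate 3 raised the PDK3 FPKM and so lowered this last share in part. The phosphofructokinases kept their order in every library, with PFKP between 53.2% and 63.5%, PFKL between 31.5% and 40.9% and PFKM at most 5.93%. EPAS1 made up at most 4.96% of the summed HIF1A and EPAS1 in every library. No test was made of these shares.

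**Figure D5:**
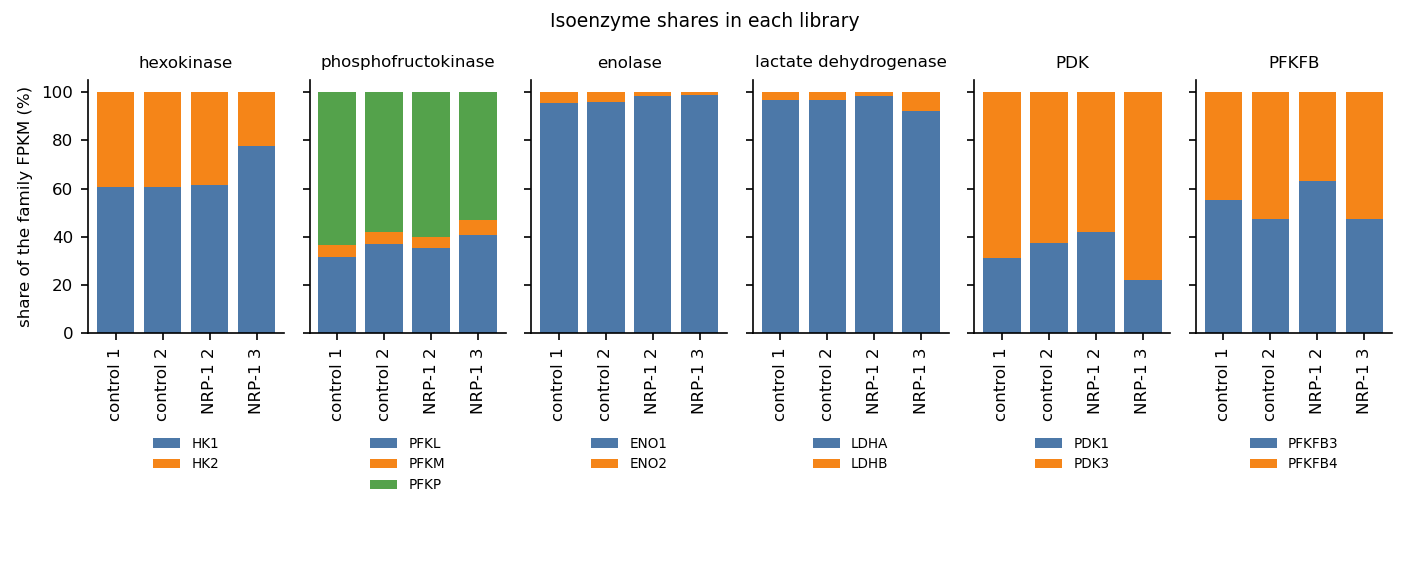
Share of each isoenzyme in the summed FPKM of its family in each library, in percent, where control 1 and 2 and NRP-1 2 and 3 are the library numbers of the labels. Families hold members only, without PDK2, PDK4 and PFKFB2 among others. The HK2 and PDK1 shares are smallest and the LDHB share is largest in NRP-1 replicate 3, and the ENO2 share is smaller in both NRP-1 libraries than in the controls.

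A wider list of 54 genes of glucose metabolism that are not members (other isoenzymes, pyruvate dehydrogenase, gluconeogenesis, the pentose phosphate pathway and glycogen) had 45 tested genes, of which edgeR called 0 higher and 2 lower at an adjusted p of 0.05, against 0.413% and 0.678% of all tested genes. PYGB, the glycogen phosphorylase of brain type, had 13743 and 13422 reads in the controls against 7020 and 6385 in NRP-1 replicates 2 and 3, and fell by 1.08 on the log2 scale (SE 0.13, adjusted p = 0.0435, edgeR). LDHD, the mitochondrial D-lactate dehydrogenase, had 148 and 148 reads against 51 and 41, and fell by 1.74 (SE 0.23, adjusted p = 0.044, edgeR). Both genes were low to a like extent in both NRP-1 libraries.

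Next in that list came FBP1, the gluconeogenic fructose bisphosphatase, with 407 and 407 reads against 680 and 769 (log2 fold change 0.77, adjusted p = 0.057, edgeR). DLAT, a subunit of pyruvate dehydrogenase, had 202 and 220 reads against 333 and 398 (log2 fold change 0.73, adjusted p = 0.0802, edgeR). ENO3, the muscle enolase, had 46 and 36 reads against 20 and 15 (log2 fold change -1.28, adjusted p = 0.115, edgeR). Replicate 2 above and replicate 3 below the controls was seen in 2 of the 45 (4.44%), against 8.85% of all tested genes.

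A wider list of 45 genes of the hypoxia response outside glycolysis had 43 tested genes and a median log2 fold change of -0.14. edgeR called 0 of them. At an unadjusted p of 0.05 it gave 5 higher (11.6%) and 10 lower (23.3%), against 10.8% and 12.1% of all tested genes, and DESeq2 called 1 higher and 5 lower, against 2.78% and 3.89%. STC2, the secreted stanniocalcin 2, had 875 and 931 reads in the controls against 495 and 561 in NRP-1 replicates 2 and 3 (log2 fold change -0.83, adjusted p = 0.0536, edgeR). DDIT4, an inhibitor of mTORC1, had 3170 and 3050 reads against 1605 and 980 (log2 fold change -1.33, adjusted p = 0.0627, edgeR). EGLN2, the third of the prolyl hydroxylases, had 1954 and 1987 reads against 1084 and 1342 (log2 fold change -0.76, adjusted p = 0.0678, edgeR). STC2, DDIT4 and EGLN2, named for their low adjusted p, lay below the controls in both NRP-1 libraries. Both NRP-1 libraries lay below both controls in 18 of the 43 genes (41.9%), against 28.3% of all tested genes. Both lay above in 7 (16.3%), against 27.9%.

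TFRC, the transferrin receptor, had 3062 and 2977 reads against 4473 and 4352 (log2 fold change 0.49, adjusted p = 0.0893, edgeR), and HMOX1, heme oxygenase 1, had 99 and 98 reads against 55 and 62 (log2 fold change -0.81, adjusted p = 0.112, edgeR). VEGFA, a HIF target whose product is a ligand of NRP-1, was chosen after its values were seen, with 4999 and 4867 reads in the controls against 2524 and 892 (log2 fold change -1.59, SE 0.45, adjusted p = 0.117, edgeR). It lay below the controls in both NRP-1 libraries, most of all in replicate 3. The order of replicate 2 above and replicate 3 below the controls was seen in 9 of the 43 genes (20.9%), against 8.85% of all tested genes, and 32 of the 43 (74.4%) were higher in replicate 2 than in replicate 3, against 51.0%.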

How the data were processed

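RNA of BT-474 cells was sequenced after poly(A) enrichment in 2 control and 2 NRP-1 libraries. The expected counts summed over genes were 8243595 to 8448926 per library, which is not the number of reads sequenced. The authors deposited an unnormalized expected count per gene, an FPKM value scaled by length and library, and the mean transcript length. The processing notes name bcl2fastq 2.16, HISAT2 2.0.1, Bowtie2 2.2.5 and RSEM, and GRCh38 and hg19 without a role, so no coordinates come from these tables. Copies of TPI1 and PGAM1 took at most 1.11% of the summed reads each. The table of the authors' comparison (means, log2 ratios and a probability) was not used.

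Rounded counts of 14298 genes were compared by quasi-likelihood test in edgeR 4.0.16 (R 4.3.3, TMM scaling, filterByExpr, group term only), with Benjamini-Hochberg adjustment. The SE is the size of the log2 fold change over the square root of F. CPM are TMM-scaled, and log2 ratios of CPM have 0.1 added. The alternatives were DESeq2 1.42.0, limma 3.58.1 (pseudocount 1 or 0.1, mean FPKM of at least 0.5), library totals, no filter, summed copies and leaving out each library. In simulated libraries 200 of 14114 genes were given a log2 change of 1. Of these edgeR recovered 42.5% (4 false calls) and DESeq2 36.0% (5 false calls). These rates belong to the simulated libraries, and recovery and false calls in the measured libraries were not tested.

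All members are named, and from each wider list the genes past an adjusted p of 0.05, or the 5 with the lowest at a mean of at least 10 reads, whichever set is larger. Members, lists and tests were chosen with earlier results of these data known. Symbols (99.36% of IDs matched) and promoter windows are from RefSeq, GRCh38.p14. Windows of SLC16A1, NDRG1 and BNIP3L were not used here. Python 3.11.15 made the tables and figures.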

Additional observations from a re-analysis of the deposited data

How the results depend on the processing

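No paired analysis was possible because the groups share only replicate number 2. Over all genes the 156 calls became 954 in DESeq2, 7 and 3 in limma with pseudocounts of 1 and 0.1, and 0 of 18837 without a filter on low counts, where 3297 had an unadjusted p under 0.05. With each library left out they ranged from 0 to 5414. The members called, 0 in edgeR, were 5 in DESeq2 and ranged from 0 to 22 with each library left out. The median log2 fold change then ranged from 0.07 to 0.39 for the enzymes and from -0.54 to 0.28 for the HIF-only targets, where the highest value came without NRP-1 replicate 3 and the lowest without replicate 2. Of 204 member values under the other alternatives 193 had the direction and threshold side of the reported value, 5 passed the threshold and 6 turned sign. The turned signs were PDK3, at 0.22 and 0.23 in limma and 0.01 without TMM, ANKRD37, at 0.03 without TMM, and EGLN3, at -0.12 and -0.12 in limma. With each library left out, 21 members took both signs. The log2 fold change ranged from -0.86 to 0.29 for HK2, -0.19 to 0.51 for GPI, -0.05 to 0.22 for PFKL, -0.07 to 0.07 for PFKM, -0.42 to 0.06 for PFKP, -0.48 to 0.05 for ALDOA and -0.20 to 1.06 for PGK1. It ranged from -0.28 to 1.08 for PFKFB3, -0.07 to 0.40 for PFKFB4, -0.15 to 1.82 for LDHB, -0.57 to 0.53 for PDK1, -0.07 to 0.03 for PDK3, -0.39 to 2.02 for CA9, -1.08 to 0.27 for BNIP3 and -0.52 to 0.28 for BNIP3L. It ranged from -1.63 to 0.24 for NDRG1, -0.54 to 0.38 for ANKRD37, -0.15 to 0.35 for EGLN1, -0.89 to 0.57 for EGLN3, -0.48 to 0.22 for KDM3A and -0.78 to 0.08 for EPAS1. The cause was not tested. Summing copies changed no call. CA9, ALDOC and SLC16A1, with at most 53, 15 and 11 reads, are limited by depth.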
